A study of Caenorhabditis elegans with 15 samples.

Results

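The response of Caenorhabditis elegans to sucrose and stearic acid given together was measured as the difference between 3 libraries of the sucrose-stearic acid group and 3 libraries of the control group. These are 6 of the 15 libraries of the study, in which mRNA from whole wild-type worms (strain N2) was sequenced at the L4 stage, the last larval stage. Worms of the sucrose-stearic acid group received sucrose at 400 mmol/L together with stearic acid, a saturated fatty acid, at a dose that the labels give as 500 mg/ml and the methods of the study as 500 μg/mL. The sucrose group received only the sucrose and the stearic acid group only the stearic acid, with 3 libraries each, and both were used only for direct comparisons with the combined diet. Control worms received neither, and all worms were fed Escherichia coli OP50 on NGM agar. Stearic acid was dissolved in ethanol, and whether the control plates held ethanol is not given in the sources used here. The methods describe the libraries of a group as triplicates, so p-values measure the spread between these libraries. All genes that passed a low-count filter were included, which was 12781 of 16196 genes in the table.

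A worm digests its food, stores fat and makes most of its detoxifying enzymes in the intestine. Concentrated sugar in the medium is also a hypertonic condition, in which worms are known to make glycerol as a protective solute. Fatty acids from the diet are activated to acyl-CoA and then broken down in mitochondria and peroxisomes, or lengthened and desaturated into the polyunsaturated fatty acids of membranes.

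Summed counts were between 19523425 and 20319650 in the sucrose-stearic acid libraries, against 19433436 to 20024648 in the control libraries. Levels are given as CPM, the counts of a gene brought to a common library total after TMM scaling, which are compared between libraries and not between genes, and a log2 fold change (log2FC) is the sucrose-stearic acid group over the control group. A differentially expressed gene (DEG) had an adjusted p of 0.05 or less in edgeR's quasi-likelihood test and a fold change of at least 2. Of the genes tested, 1223 (9.57%) were DEGs, with 551 (4.31%) upregulated and 672 (5.26%) downregulated. The 3 and 3 libraries did not overlap for all 551 upregulated DEGs and for 667 of the downregulated DEGs, and such separation was seen for 37.6% of all genes tested. A change of 4-fold or more was found in 159 upregulated and 350 downregulated DEGs. Upregulated DEGs together made up 87200, 88200 and 85400 CPM in the sucrose-stearic acid libraries, against 29400, 27400 and 26000 CPM in the control libraries. Downregulated DEGs made up 12400, 15500 and 11300 CPM in the sucrose-stearic acid libraries, against 73200, 69200 and 45300 CPM in the control libraries. Control library 3 was thus the lowest of its group for the downregulated genes, and it stood apart from the other control libraries in further genes described with the germline markers. Without it, 1284 DEGs were found, of which 510 were upregulated and 774 downregulated. In RNA of whole worms, fewer cells of a type and less RNA per cell cannot be told apart.

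**Figure D1:**
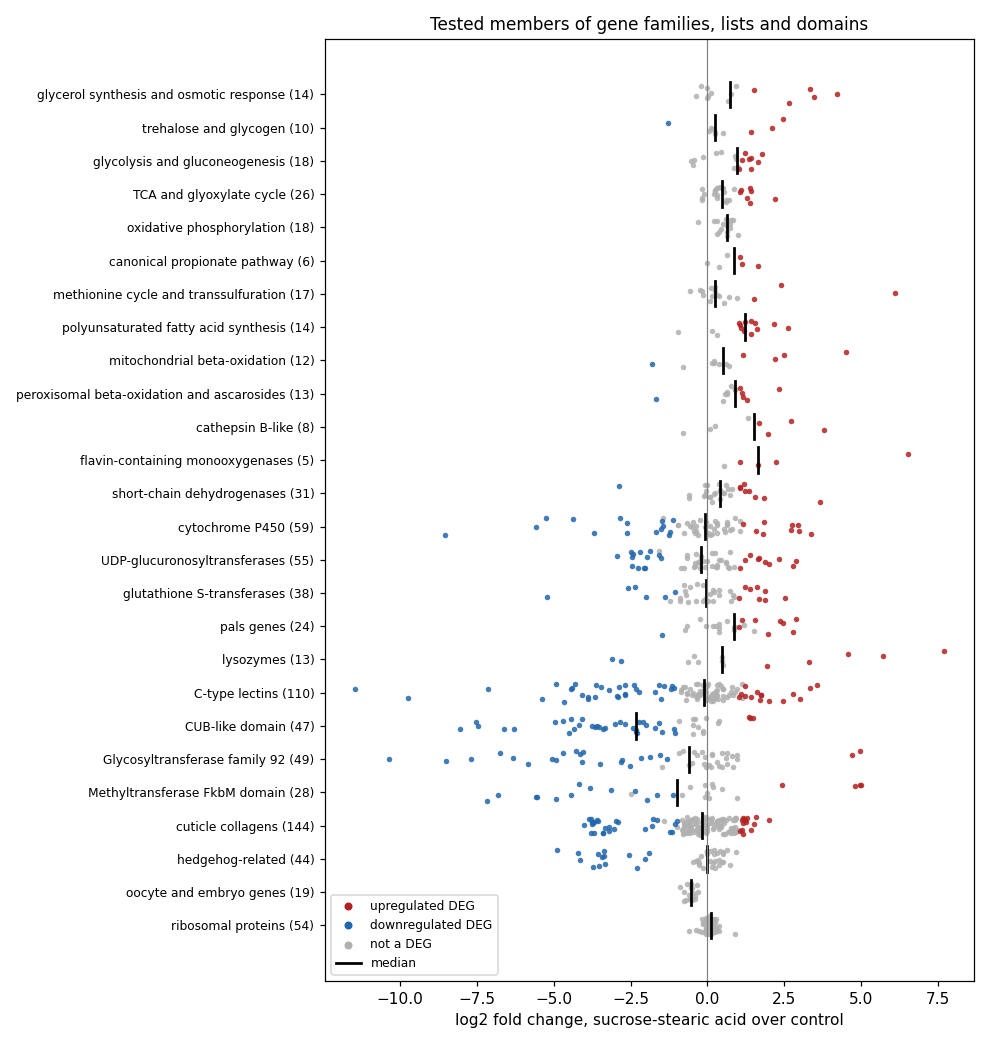
Log2 fold change (sucrose-stearic acid over control, horizontal axis) of the tested members of gene families, lists and protein domains, 1 row per group, with a point per gene and a mark at the median of the group. Red points are upregulated DEGs, blue points downregulated DEGs and grey points genes that were not DEGs. The rows of glycolysis and of polyunsaturated fatty acid synthesis lie mostly to the right of 0 with no downregulated DEG, while the CUB-like domain proteins lie mostly to the left with a median of -2.31.

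Part of the genes of glycerol synthesis and of the osmotic response were upregulated. Of 14 tested members of this list, 5 were upregulated (35.7%, against 4.31% of all genes) and none was downregulated. The median log2FC was 0.72, against -0.03 over all genes tested. hmit-1.1, a proton-coupled myo-inositol transporter, had 457, 429 and 362 CPM in the sucrose-stearic acid libraries, against 22, 23.9 and 20.8 CPM in the control libraries (log2FC 4.22 ± 0.128 SE, edgeR adjusted p = 1.53e-07). gpdh-1, a glycerol-3-phosphate dehydrogenase that is the classical marker of hypertonic stress, had 123, 104 and 89.8 CPM in the sucrose-stearic acid group, against 21.7, 14.3 and 14.7 CPM in the control group (log2FC 2.64 ± 0.193, edgeR adjusted p = 1.55e-05). Both genes were several-fold higher in every library of the combined diet than in any control library. The second glycerol-3-phosphate dehydrogenase gene gpdh-2 rose less (log2FC 1.52), and the phosphatase genes pgph-1 and pgph-2 rose by 3.45 and 3.32 on the log2 scale. The kinases that regulate cell volume, wnk-1 and gck-3, had log2FC of -0.03 and 0.02 and were not DEGs, and neither were osm-7 (0.67) and osm-11 (-0.21), secreted proteins that restrain the osmotic response. The glycerol channel gene aqp-1, expressed in the intestine, had 207, 201 and 241 CPM in the sucrose-stearic acid libraries, against 13.5, 11.4 and 13.2 CPM in the control libraries (log2FC 4.09 ± 0.129, edgeR adjusted p = 1.61e-07). Another aquaporin, aqp-8, had 137, 148 and 128 CPM, against 86.9, 93.8 and 101 CPM in the control group, and with a log2FC of 0.55 was not a DEG.

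Among genes for storage sugars, the glucosidases changed more than the trehalases. aagr-2 and aagr-1, which encode relatives of acid alpha-glucosidase, the enzyme that releases glucose from glycogen in lysosomes, were upregulated with log2FC of 2.44 and 2.1. Of the trehalase genes, which encode enzymes that split trehalose into glucose, tre-3 was upregulated (1.41), tre-5 was downregulated (-1.27) and tre-1, tre-2 and tre-4 had log2FC of 0.10, 0.26 and 0.17 and were not DEGs. In all, 3 of 10 genes of trehalose and glycogen metabolism were upregulated and 1 was downregulated (30% and 10%, against 4.31% and 5.26% of all genes). Of 6 tested sugar transporter genes of the SWEET type, swt-7 was downregulated, with 45.2, 48.4 and 53.1 CPM in the sucrose-stearic acid libraries, against 118, 133 and 113 CPM in the control libraries (log2FC -1.31 ± 0.113, edgeR adjusted p = 4.78e-05). The other 5 were between -0.42 (swt-1) and 0.66 (swt-3) and were not DEGs.

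Enzymes of glycolysis and gluconeogenesis were higher on the combined diet, with a median log2FC of 0.97. Of 18 tested genes, 8 were upregulated (44.4%, against 4.31% of all genes) and none was downregulated. The upregulated genes belonged to several steps, namely aldolase (aldo-2, 1.35), glyceraldehyde-3-phosphate dehydrogenase (gpd-3, 1.21), pyruvate kinase (pyk-2, 1.42), the mitochondrial pyruvate carrier (mpc-1, 1.4), aldehyde dehydrogenase (alh-1, 1.77), pyruvate carboxylase (pyc-1, 1.02) and phosphoenolpyruvate carboxykinase (pck-2, 1.65, and pck-1, 1.13). pck-2, which directs oxaloacetate toward glucose synthesis, had 2477, 2459 and 2192 CPM in the sucrose-stearic acid libraries, against 867, 682 and 727 CPM in the control libraries. The hexokinase genes hxk-2 (0.27) and hxk-3 (-0.14) were not DEGs. pyc-1 and the phosphoglycerate kinase gene pgk-1 (1.0, not a DEG) lay at the 2-fold limit. pgk-1 passed it without any 1 of sucrose-stearic acid libraries 1 and 3 (1.01 each) and control libraries 1 and 3 (1.05 and 1.01), and pyc-1 fell under it without sucrose-stearic acid library 2 (0.96) or control library 2 (0.91). When no fold minimum was required, 13 of 18 genes of glycolysis and gluconeogenesis were significantly higher and 0 were lower.

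In the TCA and glyoxylate cycle, 7 of 26 tested genes were upregulated (26.9%, against 4.31% of all genes). None was downregulated, and the median log2FC was 0.48. icl-1 encodes the bifunctional enzyme of the glyoxylate shunt, which lets worms make sugar from fat, and it had 4088, 4593 and 3969 CPM in the sucrose-stearic acid libraries, against 1030, 682 and 1080 CPM in the control libraries (log2FC 2.18 ± 0.166, edgeR adjusted p = 1.96e-05). The lowest sucrose-stearic acid library was several-fold above the highest control library. The other upregulated members were the aconitases aco-1 (1.42) and aco-2 (1.09), the isocitrate dehydrogenase idh-1 (1.39), citrate synthase cts-1 (1.39), malate dehydrogenase mdh-2 (1.27) and the carrier misc-1 (1.06). Subunits of the 2-oxoglutarate dehydrogenase and succinyl-CoA synthetase changed less, with log2FC of 0.22 (ogdh-1), 0.26 (dlst-1), -0.18 (suca-1) and -0.19 (sucg-1). In the KEGG annotation of the table, glyoxylate and dicarboxylate metabolism had 11 upregulated genes of 22 and pyruvate metabolism 8 of 18, with none downregulated in either. These shares were 50% and 44.4%, against 4.31% of all genes. Of 18 tested genes of oxidative phosphorylation, 17 were higher and 1 was lower, with a median log2FC of 0.63. None of these 18 genes was a DEG in edgeR's test or by DESeq2, limma called 1, and 16 had an unadjusted p of 0.05 or less. Their summed level was 8880, 9000 and 8920 CPM in the sucrose-stearic acid libraries, against 6440, 6200 and 5890 CPM in the control libraries, so that the groups did not overlap. Without the fold minimum, 15 of the 18 oxidative phosphorylation genes passed the adjusted p of 0.05. The larger KEGG group of oxidative phosphorylation had 1 upregulated gene of 71 and none downregulated. Of the 71, 62 were higher, with a median log2FC of 0.49. The ATP synthase gene asg-2 (0.99) reached the threshold when the replicate number was used as a block (1.01), and also without sucrose-stearic acid library 1 (1.0) or 2 (1.04) or control library 1 (1.02) or 2 (1.09).

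**Figure D2:**
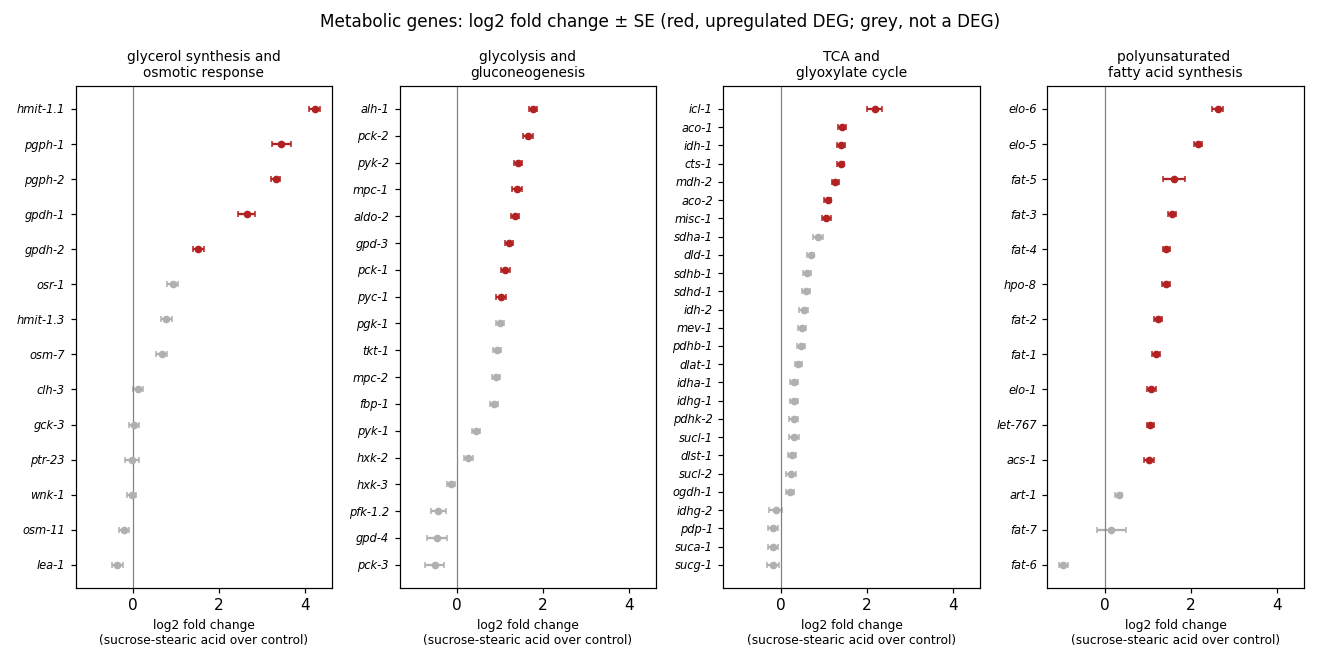
Log2 fold change (sucrose-stearic acid over control) of each tested gene in 4 metabolic lists, with bars of 1 SE. Red points are upregulated DEGs and grey points genes that were not DEGs. hmit-1.1 and elo-6 lead the lists of the osmotic response and of polyunsaturated fatty acid synthesis, with 4.22 and 2.63, and fat-6 is the lowest point of its list at -0.96.

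Propionate is broken down in worms through a vitamin B12-dependent pathway or, when that is limited, through a shunt that begins with the acyl-CoA dehydrogenase acdh-1. acdh-1 had 171, 127 and 59.6 CPM in the sucrose-stearic acid libraries, against 1.48, 1.06 and 0.868 CPM in the control libraries (log2FC 6.71 ± 0.443, edgeR adjusted p = 8.40e-06). The 3 sucrose-stearic acid libraries differed among themselves more than for the other genes described so far, and all lay far above the control libraries. hphd-1, the shunt's hydroxyacid-oxoacid transhydrogenase, was upregulated (2.12), and the hydrolase hach-1 (0.93, and 1.0 and a DEG without sucrose-stearic acid library 3) and the receptor nhr-10 (0.46), which is known to activate the shunt genes, were not DEGs. In the vitamin B12-dependent pathway, 3 of 6 genes were upregulated (50%, against 4.31% of all genes). They were mce-1 (methylmalonyl-CoA epimerase, 1.63) and the propionyl-CoA carboxylase subunits pcca-1 (1.11) and pccb-1 (1.07), while the mutase mmcm-1 (0.63) was not a DEG.

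In the methionine cycle and transsulfuration, 3 of 17 genes were upregulated (17.6%, against 4.31% of all genes) and none was downregulated. The change was concentrated in cth-1. cth-1 encodes a cystathionine gamma-lyase, which makes cysteine, and had 594, 726 and 861 CPM in the sucrose-stearic acid libraries, against 11.4, 9.78 and 10.8 CPM in the control libraries (log2FC 6.09 ± 0.172, edgeR adjusted p = 1.53e-07). Its paralog cth-2 had a log2FC of 0.25 and the upstream enzyme cbs-1 one of -0.25, and neither was a DEG. The folate transporter gene folt-2 (2.39) and the cyanoalanine synthase gene cysl-2 (1.51) were the other upregulated members. The S-adenosylmethionine synthetase gene sams-1 (0.97) lay just under the threshold and passed it without sucrose-stearic acid library 3 (1.06) or control library 2 (1.08).

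Of 9 genes of branched-chain amino acid breakdown, 2 were upregulated (22.2%, against 4.31% of all genes) and none was downregulated. Of the 9, 6 were higher and 3 lower. The lowest, bcat-1 (-0.93), was downregulated without sucrose-stearic acid library 2 (-1.02) or control library 3 (-1.03). Of 20 genes of other amino acid metabolism, 4 were upregulated and 1, tatn-1, was downregulated (20% and 5%, against 4.31% and 5.26% of all genes). hacd-1, a hydroxyacyl-CoA dehydrogenase gene, had 602, 589 and 558 CPM in the sucrose-stearic acid libraries, against 25.3, 31.4 and 24.3 CPM in the control libraries (log2FC 4.43 ± 0.129, edgeR adjusted p = 1.53e-07), and the thiolase gene kat-1 was upregulated (1.67). tatn-1 encodes tyrosine aminotransferase, the first enzyme of tyrosine breakdown, and had 102, 141 and 84.6 CPM in the sucrose-stearic acid libraries, against 686, 668 and 513 CPM in the control libraries (log2FC -2.51 ± 0.196, edgeR adjusted p = 2.39e-05). The next enzyme, hpd-1 (-0.76), and the phenylalanine hydroxylase pah-1 (-0.66) were not DEGs. Glutamine synthetase genes differed from each other, with gln-3 upregulated (1.83) and gln-1, gln-2, gln-5 and gln-6 between -0.54 and -0.26 and not DEGs.

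Genes that make polyunsaturated and branched-chain fatty acids were upregulated in 11 of 14 cases (78.6%, against 4.31% of all genes). None was downregulated, and the median log2FC was 1.21. elo-6, an elongase of monomethyl branched-chain fatty acids, had 702, 645 and 643 CPM in the sucrose-stearic acid libraries, against 113, 120 and 89.6 CPM in the control libraries (log2FC 2.63 ± 0.127, edgeR adjusted p = 1.77e-06). elo-5, which acts in the same branched-chain pathway, rose by 2.17. Of all 7 tested elongase genes, 3 were upregulated and 1 was downregulated (42.9% and 14.3%, against 4.31% and 5.26% of all genes). The downregulated gene was not in this list. The elongase family had a median log2FC of -0.04 and a lowest value of -2.02. The desaturases that act in turn to make polyunsaturated fatty acids all rose, with log2FC of 1.23 (fat-2), 1.56 (fat-3), 1.43 (fat-4) and 1.19 (fat-1). The desaturases that put the first double bond into saturated fatty acids differed from each other. fat-5, which acts on palmitic acid, had 70.4, 75.7 and 57.2 CPM in the sucrose-stearic acid libraries, against 28.4, 25.5 and 12.8 CPM in the control libraries (log2FC 1.61 ± 0.263, edgeR adjusted p = 0.00216). fat-6, which acts on stearic acid, had 253, 277 and 268 CPM, against 549, 460 and 545 CPM in the control libraries (log2FC -0.96 ± 0.102, edgeR adjusted p = 0.000173). The libraries of the 2 groups did not overlap for either gene, but fat-6 did not reach the 2-fold threshold, except without control library 2 (-1.06). fat-7, the other stearic acid desaturase gene, was near the detection limit with 1.16, 0.911 and 1.83 CPM in the sucrose-stearic acid group, against 1.28, 1.22 and 1.01 CPM in the control group.

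Of 16 genes of de novo fat synthesis and storage, 1 was upregulated (6.25%, against 4.31% of all genes) and none was downregulated, with a median log2FC of 0.08. The upregulated gene was dhs-3 (1.55), which encodes an abundant lipid droplet protein. The fatty acid synthase gene fasn-1 (0.09), the acetyl-CoA carboxylase gene pod-2 (0.98), the regulator sbp-1 (0.83) and the lipase gene atgl-1 (-0.17) were not DEGs. pod-2 passed the threshold without sucrose-stearic acid library 3 (1.09) or control library 1 (1.06). The diacylglycerol acyltransferase gene dgat-2 (0.84) was not a DEG, except without control library 1 (1.03).

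Fatty acid breakdown was represented by a few strongly upregulated genes. acs-2, an acyl-CoA synthetase gene known to rise on fasting, had 2085, 2170 and 2289 CPM in the sucrose-stearic acid libraries, against 93.3, 66.2 and 129 CPM in the control libraries (log2FC 4.50 ± 0.228, edgeR adjusted p = 2.17e-06). Of the mitochondrial beta-oxidation list, 4 of 12 genes were upregulated and 1 was downregulated (33.3% and 8.33%, against 4.31% and 5.26% of all genes). ech-7, an enoyl-CoA hydratase gene, followed acs-2 with 2.48. The carnitine palmitoyltransferase genes, whose enzymes carry fatty acids into mitochondria, did not move together. cpt-3 had 13.7, 13.1 and 5.17 CPM in the sucrose-stearic acid libraries, against 3.68, 2.94 and 0.386 CPM in the control libraries (log2FC 2.20 ± 0.603, edgeR adjusted p = 0.0311), and it was not called without sucrose-stearic acid library 1 (1.97) or 2 (2.02) or control library 2 (2.40). cpt-4 had 7.39, 8.45 and 10.5 CPM in the sucrose-stearic acid group, against 35.1, 23.3 and 33.8 CPM in the control group (log2FC -1.80 ± 0.206, edgeR adjusted p = 0.000266), while cpt-2 (0.20), cpt-5 (-0.11) and cpt-6 (-0.17) were not DEGs. Of 13 peroxisomal genes, 5 were upregulated and 1 was downregulated (38.5% and 7.69%, against 4.31% and 5.26% of all genes). Of the 13, 12 were higher in the sucrose-stearic acid group. They included the transporter genes pmp-5 (2.32) and pmp-4 (1.14), the acyl-CoA oxidase gene acox-1.1 (1.3), the hydratase gene maoc-1 (1.11) and dhs-28 (1.05), and the last of these with pmp-4 fell under the threshold without control library 3 (0.98 and 0.94). The thiolase gene daf-22 (0.90), which acts with them in ascaroside pheromone synthesis, was not a DEG, except without control library 1 (1.02).

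Lipid handling outside these pathways changed in both directions. Of 7 lysosomal lipase genes, 3 were upregulated and 2 downregulated (42.9% and 28.6%, against 4.31% and 5.26% of all genes). lipl-5 had 876, 873 and 1008 CPM in the sucrose-stearic acid libraries, against 236, 217 and 224 CPM in the control libraries (log2FC 2.03 ± 0.0985, edgeR adjusted p = 1.81e-06). lipl-3 (2.67) and lipl-4 (1.41) were also upregulated, whereas lipl-8 was downregulated, with 0.253, 0.253 and 0 CPM, against 6.09, 6.69 and 2.65 CPM in the control group. lipl-2 was the other downregulated gene (-1.05), and it missed the threshold without sucrose-stearic acid library 1 (-0.96). Of 14 fatty acid-binding protein genes, 3 were upregulated (21.4%, against 4.31% of all genes). Of these, far-3 had 716, 690 and 930 CPM, against 132, 105 and 131 CPM in the control group (log2FC 2.66 ± 0.150, edgeR adjusted p = 3.69e-06). The 5 vitellogenin genes, which encode yolk proteins of the adult intestine, included no DEG in edgeR's test, by DESeq2 or by limma, with 2 at an unadjusted p of 0.05 or less, and lay between -1.27 and 0.79. With the replicate number as a block, 1 vitellogenin gene was called.

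Families of detoxifying enzymes held many DEGs without a common direction, with 40.7% of cytochrome P450, 41.8% of UDP-glucuronosyltransferase and 36.8% of glutathione S-transferase genes called, against 9.57% of all genes. Of 59 cytochrome P450 genes, 9 were upregulated and 15 downregulated. Of 55 UDP-glucuronosyltransferase genes, 10 were upregulated and 13 downregulated, and of 38 glutathione S-transferase genes, 8 were upregulated and 6 downregulated. The medians were -0.08, -0.22 and -0.04. Upregulated cytochrome P450 genes included cyp-25A1 (3.37), cyp-25A2 (2.93) and cyp-25A3 (1.57), while cyp-25A4 (0.53) was not a DEG. Downregulated ones included cyp-35A2 (-1.47), cyp-35A3 (-5.56) and cyp-35A4 (-5.26, and -7.24 without sucrose-stearic acid library 3), while cyp-35A1 (-1.43) and cyp-35A5 (-0.97) were not DEGs. The cyp-13A genes went both ways. cyp-13A4 was lost almost completely, with 0, 0.0506 and 0.254 CPM in the sucrose-stearic acid libraries, against 24.8, 53.9 and 39.9 CPM in the control libraries (log2FC -8.52, and -10.29 without sucrose-stearic acid library 3), and cyp-13A6 (-3.68) and cyp-13A7 (-1.5) were also downregulated, while cyp-13A12 (2.98) and cyp-13A2 (1.14) were upregulated. The stress reporter gene gst-4 had 725, 648 and 723 CPM, against 214, 187 and 169 CPM in the control group (log2FC 1.88 ± 0.114, edgeR adjusted p = 5.13e-06), and gst-38 was the most reduced glutathione S-transferase gene, with 1.16, 1.06 and 2.48 CPM, against 64.5, 66.2 and 46.2 CPM in the control group. The flavin-containing monooxygenases rose as a family, with 4 of 5 genes upregulated, none downregulated and a median log2FC of 1.64. fmo-2 had 1572, 1642 and 1814 CPM in the sucrose-stearic acid libraries, against 14, 16.1 and 25 CPM in the control libraries (log2FC 6.51 ± 0.233, edgeR adjusted p = 4.27e-07). fmo-5 (2.22) and fmo-1 (1.64) followed, and fmo-3 (1.05) lay at the threshold and missed it without control library 3 (0.95). Short-chain dehydrogenase genes were mostly upregulated where they changed, with 8 of 31 upregulated and 1 downregulated (25.8% and 3.23%, against 4.31% and 5.26% of all genes). The general oxidative stress list had 1 upregulated gene of 18 (5.56%, against 4.31% of all genes), which was gst-4, and a median of 0.03. The regulator skn-1 (-0.75) and the superoxide dismutase gene sod-3 (0.01) were not DEGs.

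Digestive and lysosomal proteases were divided by class. All 4 DEGs among 8 cathepsin B-like cysteine protease genes were upregulated, whereas 4 of the 6 DEGs among 12 aspartic protease genes were downregulated. DEGs made up 50% of the genes of each class, against 9.57% of all genes. cpr-5 had 858, 894 and 926 CPM in the sucrose-stearic acid libraries, against 75.2, 51.6 and 66.3 CPM in the control libraries (log2FC 3.79 ± 0.148, edgeR adjusted p = 6.48e-07). asp-14 had 184, 182 and 191 CPM, against 2211, 2544 and 1386 CPM in the control libraries (log2FC -3.46 ± 0.206, edgeR adjusted p = 4.76e-06). The 2 genes thus moved in opposite directions with no overlap between the groups. pept-1, the oligopeptide transporter of the intestine, was also lower, with 98.4 to 129 CPM in the sucrose-stearic acid libraries, against 279 to 492 CPM in the control libraries (log2FC -1.86 ± 0.213, edgeR adjusted p = 0.000269), while ges-1, the gut esterase gene, was upregulated (1.61). The intestinal regulator genes elt-2 (-0.33) and elt-7 (0.35) were not DEGs.

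Proteins with a CUB-like domain, many of which are secreted from the intestine and change on infection, were encoded by 47 tested genes. Of these, 33 were downregulated and 3 upregulated (70.2% and 6.38%, against 5.26% and 4.31% of all genes), with a median log2FC of -2.31. irg-4, an infection response gene, had 1.37, 2.73 and 3.55 CPM in the sucrose-stearic acid libraries, against 683, 929 and 392 CPM in the control libraries (log2FC -8.03 ± 0.434, edgeR adjusted p = 2.96e-06). dod-24 had 38.8, 34.7 and 74.7 CPM, against 1684, 1909 and 1005 CPM in the control libraries (log2FC -4.96 ± 0.358, edgeR adjusted p = 1.42e-05). For both genes the highest sucrose-stearic acid library was more than 10-fold under the lowest control library. Across the named groups, 5 of 8 irg genes and 6 of 10 dod genes (genes downstream of the transcription factor DAF-16) were downregulated and none was upregulated. These shares were 62.5% and 60%, against 5.26% of all genes. Among these genes, irg-4, irg-5, irg-6, dod-17, dod-21, dod-22 and dod-24 also carry the CUB-like domain. The 3 upregulated genes with the domain were F10A3.4 (1.49), K08D8.3 (1.37) and T05E12.6 (1.35).

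C-type lectin genes, which encode sugar-binding proteins linked to bacterial defence, were downregulated in 32 of 110 cases and upregulated in 15. These shares were 29.1% and 13.6%, against 5.26% and 4.31% of all genes, and the median was -0.11. clec-2 had 0.0506, 0.0506 and 0.0507 CPM in the sucrose-stearic acid libraries, or 1 count each, against 177, 215 and 91.2 CPM in the control libraries. clec-166 moved the other way, with 133, 138 and 120 CPM, against 12.5, 12 and 8.49 CPM in the control group (log2FC 3.56 ± 0.164, edgeR adjusted p = 1.54e-06). Lysozyme genes were mostly upregulated where they changed, with 5 of 13 upregulated and 2 downregulated (38.5% and 15.4%, against 4.31% and 5.26% of all genes). lys-4 had 103, 104 and 111 CPM, against 4.09, 4.11 and 5.16 CPM in the control group (log2FC 4.57 ± 0.141, edgeR adjusted p = 1.56e-07), and ilys-2 had 10.6, 11 and 13.2 CPM, against 0.153, 0 and 0 CPM in the control group. lys-2 was downregulated, with 91.7, 108 and 98.3 CPM, against 605, 751 and 715 CPM in the control group. The summed level of the lysozyme genes was lower, without overlap. It was 1730, 1730 and 1890 CPM in the sucrose-stearic acid libraries, against 2360, 2660 and 2480 CPM in the control libraries. Genes of the pals family, several of which are known to be induced by microsporidia and viruses, were upregulated in 8 of 24 cases and downregulated in 1. These shares were 33.3% and 4.17%, against 4.31% and 5.26% of all genes, and the median was 0.85. pals-31, which was upregulated, had 14.8, 18 and 17.6 CPM, against 4.81, 4.46 and 3.52 CPM in the control group (log2FC 1.98 ± 0.186, edgeR adjusted p = 7.98e-05). The summed level of the pals genes was 334, 350 and 334 CPM in the sucrose-stearic acid libraries. In the control libraries it was 396, 369 and 245 CPM, so the groups overlapped and the sum was not raised.

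Of 28 genes with a methyltransferase FkbM domain, 13 were downregulated and 4 upregulated (46.4% and 14.3%, against 5.26% and 4.31% of all genes), with a median of -0.98. Of 49 genes of glycosyltransferase family 92, 21 were downregulated and 2 upregulated (42.9% and 4.08%, against 5.26% and 4.31% of all genes), with a median of -0.59. gtnt-7 had 0, 0 and 0 CPM in the sucrose-stearic acid libraries, against 8.69, 8.11 and 7.76 CPM in the control libraries, and was at least 54.3-fold lower. gtnt-13 had 27.6, 27.4 and 24.1 CPM, against 0.869, 0.963 and 0.723 CPM in the control group (log2FC 4.95 ± 0.195, edgeR adjusted p = 6.62e-07). The other upregulated glycosyltransferase gene, gtnt-30 (4.69), and the FkbM genes F49C12.2 (4.81, and 5.45 without control library 2) and F49C12.4 (4.97) are neighbours on chromosome IV, and gtnt-13 lies near the FkbM gene C33H5.1 (5.0) on the same chromosome.

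**Figure D3:**
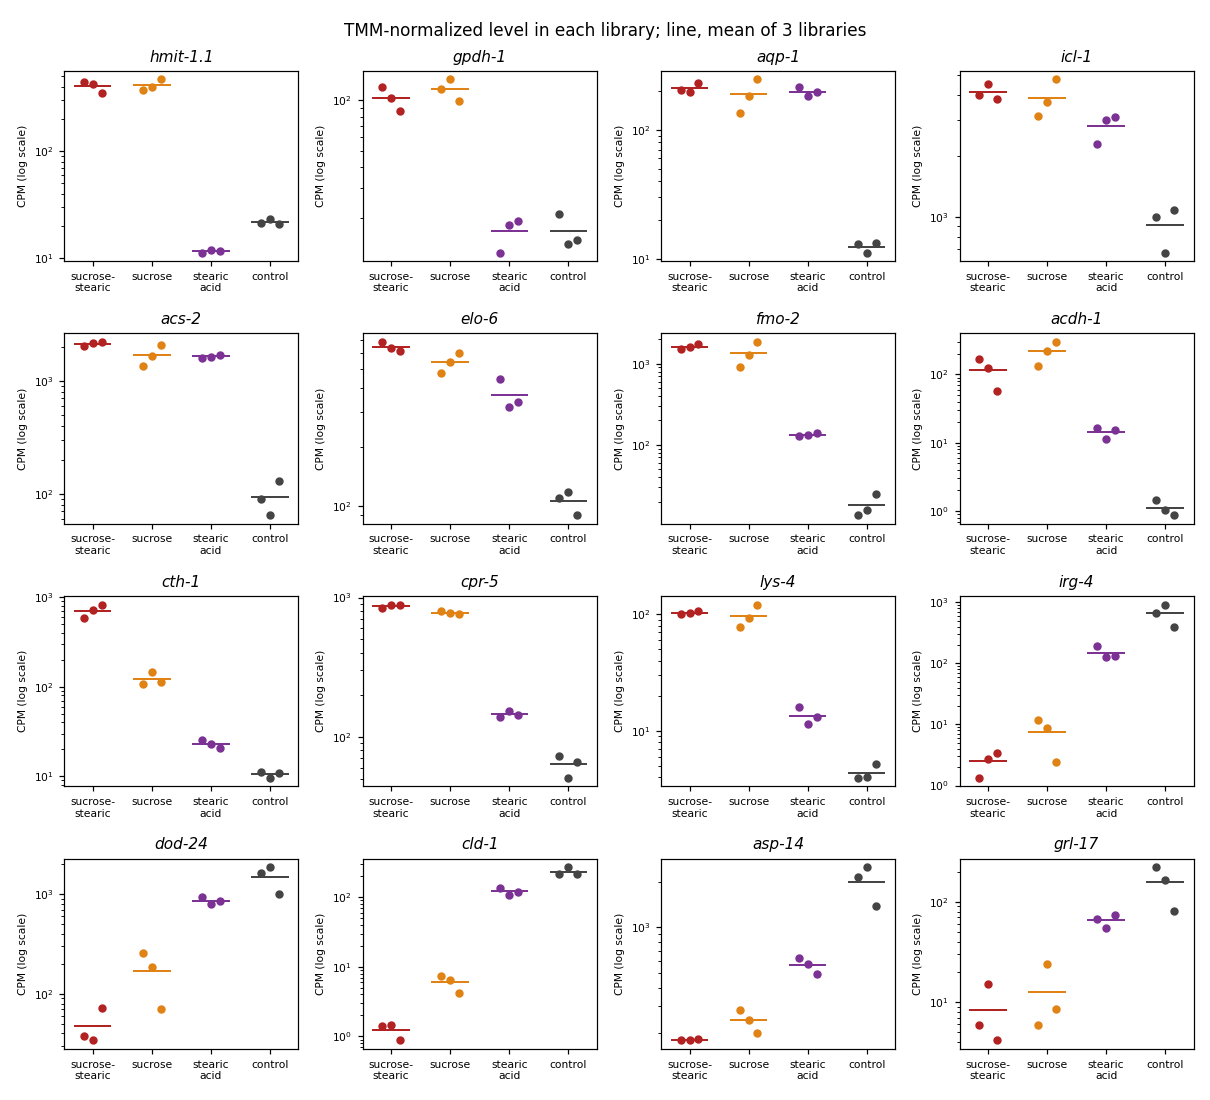
Level of 16 genes (CPM, log axis) in each library of the sucrose-stearic acid, sucrose, stearic acid and control groups, from left to right, with a point per library and a line at the mean of 3 libraries. hmit-1.1 is high in the groups that received sucrose, acs-2 and aqp-1 are high on each of the 3 diets, and cth-1 is highest in the sucrose-stearic acid libraries, between 581 and 827 CPM.

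DEGs often had DEGs of the same direction as neighbours along the genome. Places of genes were taken from the WBcel235 assembly, and 511 upregulated, 635 downregulated and 10902 other tested genes had one. A downregulated gene had a downregulated gene as its nearest tested neighbour on either side in 37.5% of cases, against 8.01% of genes that were not DEGs. For upregulated genes with an upregulated neighbour the share was 25.6%, against 7.34% of genes that were not DEGs. Genes in a cluster are often paralogs, to which reads may map in common, so members of 1 cluster are not independent. Chromosome V held 180 upregulated and 262 downregulated DEGs among 2538 tested genes (7.09% and 10.3%), and chromosome I had 46 and 35 among 1827 (2.52% and 1.92%). There were 26 runs of 3 or more consecutive downregulated genes, holding 116 genes in all, and 9 such runs of upregulated genes with 31 genes.

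The longest run held 13 downregulated genes on chromosome V (7252244 to 7301553) and held the glycosyltransferase family 92 genes gtnt-3, gtnt-4, gtnt-5, gtnt-6, gtnt-20 and gtnt-21, the FkbM genes C13A2.4, C13A2.9 and C13A2.10 and the predicted chemoreceptor gene srj-32. Their log2FC was between -5.55 and -2.11. gtnt-5 had 0.456, 1.42 and 0.406 CPM in the sucrose-stearic acid libraries, against 17.8, 13.5 and 7.67 CPM in the control libraries. Sucrose-stearic acid library 2 was the highest of its group and control library 3 the lowest of its own, without overlap, and without sucrose-stearic acid library 2 the log2FC of gtnt-5 was -4.90 in place of -4.09. A run of 10 downregulated genes on chromosome V (3968134 to 4042021) held 4 cytochrome P450 genes, cyp-34A9, cyp-34A10, cyp-35A3 and cyp-35A4. Another run on chromosome V (13716824 to 13751891) held 9 downregulated genes, among them irg-5, dct-17, cld-9 and F35E12.6, which all carry the CUB-like domain. irg-5 had 11, 14 and 32.9 CPM in the sucrose-stearic acid libraries, against 200, 394 and 185 CPM in the control libraries (log2FC -3.75, and -4.37 without sucrose-stearic acid library 3).

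On chromosome IV, CUB-like domain genes formed further downregulated runs. One of 6 genes (12960436 to 12978343) held F55G11.2, F55G11.7, F55G11.8, dod-22, mbug-1 and dod-17, and one of 4 genes (12935011 to 12944526) held cld-1, dod-21, dod-24 and dct-19. mbug-1 was the gene with the most counts among them, with 176, 171 and 321 CPM in the sucrose-stearic acid libraries, against 2826, 3337 and 1940 CPM in the control libraries (log2FC -3.60 ± 0.289, edgeR adjusted p = 2.83e-05). The longest upregulated run held 7 genes on chromosome IV (9292296 to 9309075), which were nhr-264, F49C12.1, F49C12.2, F49C12.3, F49C12.4, gtnt-30 and F49C12.6, with log2FC between 2.88 and 5.60. F49C12.6 had 239, 269 and 203 CPM, against 34.5, 35.3 and 26.4 CPM in the control group. The neighbours cth-1, str-7 and F22B8.7 on chromosome V (16094584 to 16102750) formed another upregulated run, although cth-1 encodes an enzyme and str-7 a predicted chemoreceptor.

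**Figure D4:**
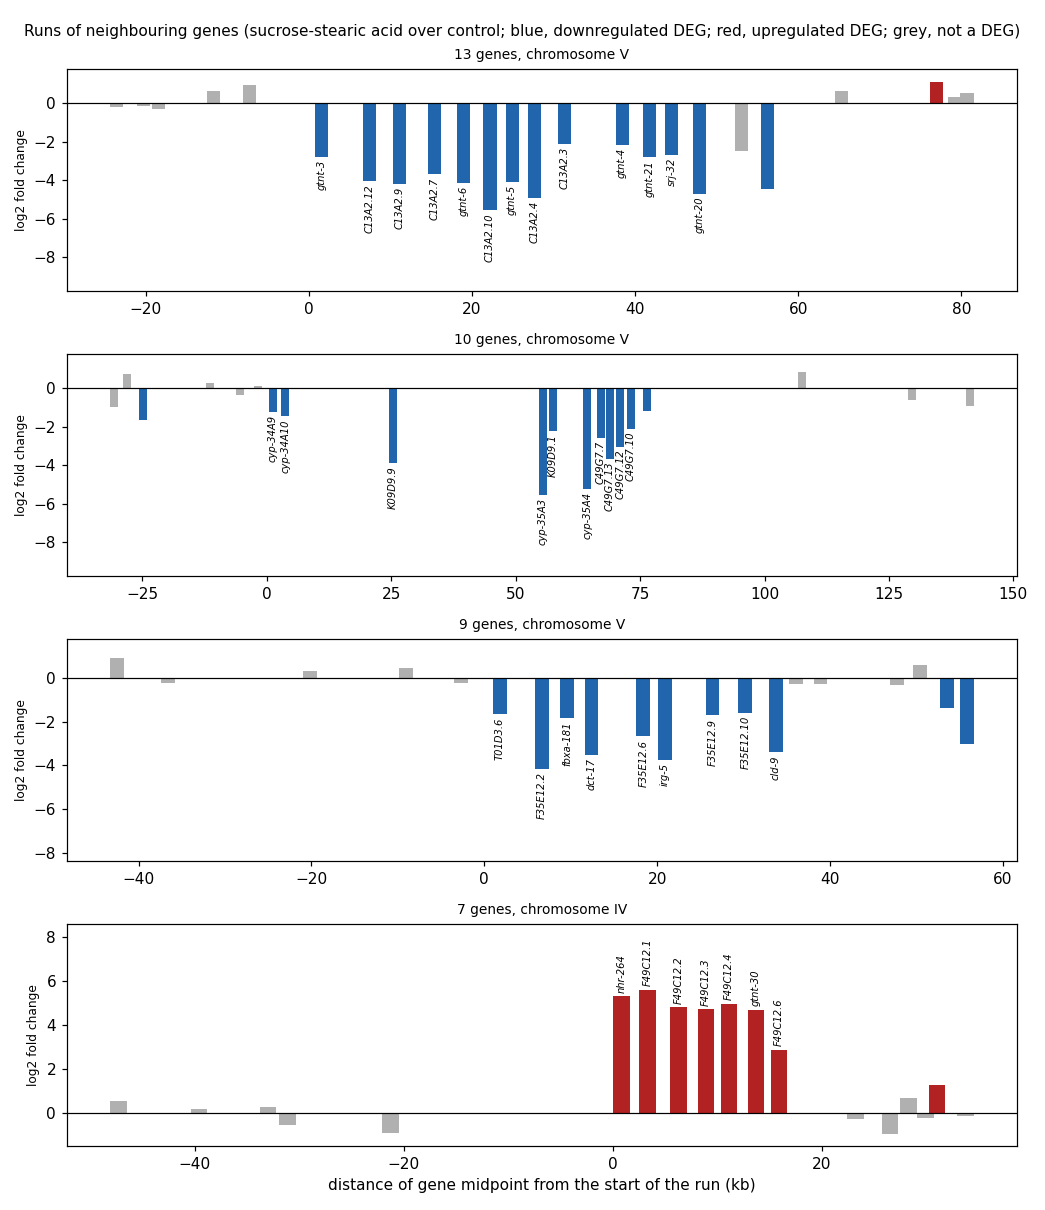
Log2 fold change (sucrose-stearic acid over control, vertical axis) of genes in and around the 4 longest runs of neighbouring DEGs with the same direction, by distance in kb from the start of the run. Blue bars are downregulated DEGs, red bars upregulated DEGs and grey bars genes that were not DEGs. The 3 downregulated runs hold 13, 10 and 9 genes and the upregulated run 7 genes.

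Cuticle genes changed in both directions. The cuticle of C. elegans is made of collagens and cuticlins that the hypodermis renews at each moult. Of 144 collagen genes, 14 were upregulated (9.72%, against 4.31% of all genes) and 27 downregulated (18.8%, against 5.26%), with a median of -0.16. col-41 had 575, 588 and 411 CPM in the sucrose-stearic acid libraries, against 151, 153 and 85.9 CPM in the control libraries (log2FC 2.01 ± 0.229, edgeR adjusted p = 0.000259), and rol-6, in which mutations twist the body, was upregulated (1.43). col-72 had 3.90, 12 and 1.12 CPM, against 122, 115 and 37.2 CPM in the control libraries (log2FC -4.01 ± 0.711, edgeR adjusted p = 0.00343). The cuticlin gene cut-1 had 42.0, 109 and 9.23 CPM, against 1066, 829 and 389 CPM in the control libraries (log2FC -3.83 ± 0.748, edgeR adjusted p = 0.00585). In both downregulated genes, sucrose-stearic acid library 2 was the highest and library 3 the lowest of the group, and without library 2 the log2FC was -5.19 for col-72 and -4.89 for cut-1.

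Hedgehog-related genes encode secreted proteins of the epidermis, since worms have no true hedgehog. Of 44 tested genes, 14 were downregulated (31.8%, against 5.26% of all genes) and none was upregulated, although the median was -0.00. grl-17 had 6.02, 15.4 and 4.31 CPM in the sucrose-stearic acid libraries, against 228, 169 and 80.9 CPM in the control libraries (log2FC -4.21 ± 0.516, edgeR adjusted p = 0.000403). The order of the libraries within each group was the same as for col-72, and without sucrose-stearic acid library 2 the log2FC of grl-17 was -4.95. The hedgehog-related genes as a whole summed to 2010, 2210 and 1540 CPM in the sucrose-stearic acid libraries, against 5640, 4750 and 2390 CPM in the control libraries, so control library 3 was close to the sucrose-stearic acid libraries. Of 19 moulting genes, none was a DEG in edgeR's test, by DESeq2 or by limma, 2 had an unadjusted p of 0.05 or less, and they lay between -0.48 and 0.55 with a median of -0.00. Moulting genes summed to 2830, 2960 and 2480 CPM in the sucrose-stearic acid libraries, against 3450, 2780 and 2360 CPM in the control libraries, and the groups overlapped. Of the hypodermis and seam markers, 1 of 9 was a DEG (11.1%, near the 9.57% of all genes), and this was rol-6. The exact age of the worms within the L4 stage was not measured by the files, and its part in these genes was not tested.

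Insulin and TGF-beta signalling act on growth and dauer formation, and the share of DEGs in both lists (12.5% and 6.25%) was near that of all genes (9.57%). Of 16 genes of insulin signalling, daf-28 was upregulated and scl-1 (-3.76), a secreted protein gene, was downregulated. daf-28, an insulin-like ligand made in neurons, had 24, 23.8 and 22.8 CPM in the sucrose-stearic acid libraries, against 10.1, 9.83 and 4.63 CPM in the control libraries (log2FC 1.52 ± 0.263, edgeR adjusted p = 0.00300). The receptor gene daf-2 (0.03), the kinase genes age-1 (-0.24) and akt-1 (-0.07) and the transcription factor gene daf-16 (-0.14) were not DEGs. Of 16 genes of the TGF-beta and dauer pathway, 1 was upregulated, daf-9 (1.45), which encodes the cytochrome P450 that makes dafachronic acid hormones, and the ligand genes dbl-1 (0.18) and daf-7 (-0.27) were not DEGs. Another insulin-like gene, ins-34, was downregulated, with 0, 0.101 and 0.203 CPM, against 3.48, 3.70 and 6.94 CPM in the control group (log2FC -5.46, and -6.38 without sucrose-stearic acid library 3). Among 145 nuclear hormone receptor genes, 12 were upregulated (8.28%, against 4.31% of all genes) and 4 downregulated (2.76%, against 5.26%). The share of DEGs in either direction (11%) was close to that of all genes. The median log2FC of these receptor genes was 0.25, with 95 higher and 50 lower.

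General protein synthesis and folding genes were little changed. None of 54 ribosomal protein genes, 47 mitochondrial ribosomal protein genes or 23 proteasome genes was a DEG in edgeR's test, and the medians were 0.10, 0.19 and -0.08. DESeq2 and limma called none of them either, and 14, 13 and 3 had an unadjusted p of 0.05 or less. Of 18 ER stress genes none was a DEG by any of the 3 tools, 6 had an unadjusted p of 0.05 or less, and hsp-4, the standard reporter of the unfolded protein response, had a log2FC of -0.63. Of 11 small heat shock protein genes, 1 was upregulated and 1 downregulated, and of 9 genes of heat shock and mitochondrial chaperones, 1 was downregulated. The shares of DEGs were 18.2% and 11.1%, against 9.57% of all genes. hsp-16.21 had 9.01, 10.7 and 5.07 CPM in the sucrose-stearic acid libraries, against 4.71, 2.53 and 2.41 CPM in the control libraries (log2FC 1.36 ± 0.344, edgeR adjusted p = 0.0211), and it was not called without sucrose-stearic acid library 1 (1.29) or 2 (1.13) or control library 2 (1.21). hsp-16.41 had 34, 64.5 and 14.4 CPM in the sucrose-stearic acid libraries, against 133, 104 and 146 CPM in the control libraries (log2FC -1.76 ± 0.423, edgeR adjusted p = 0.0167), and it was not called without sucrose-stearic acid library 1 (-1.69), while without library 2 the log2FC was -2.40. With the replicate number as a block, hsp-70 (-1.31) and hsp-16.2 (-1.46) were also downregulated, as they were without sucrose-stearic acid library 2 (-1.68 and -1.86), and with neither change they were not DEGs (-1.11 and -1.22).

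Germline and embryo genes were lower in the sucrose-stearic acid group by less than 2-fold. All 19 genes of the oocyte and embryo list and all 15 of the germline proliferation and replication list had a negative log2FC, with medians of -0.54 and -0.31. None was a DEG in edgeR's test, by DESeq2 or by limma, and 16 and 6 had an unadjusted p of 0.05 or less. The oocyte and embryo gene nos-2 (-0.90) was downregulated without sucrose-stearic acid library 3 (-1.17) or control library 1 (-1.04). The oocyte and embryo genes summed to 3530, 3320 and 4150 CPM in the sucrose-stearic acid libraries, against 4560, 4560 and 7410 CPM in the control libraries. The groups did not overlap, but control library 3 lay far above the other control libraries. Without it, the medians were -0.25 for oocyte and embryo genes and -0.10 for germline proliferation and replication. Major sperm protein genes were lower in all 12 cases, with 2 DEGs (16.7%, against 9.57% of all genes). These were msp-77 (-1.02) and msp-79 (-1.05), and neither was a DEG without control library 3 (-0.83 and -0.93) or without sucrose-stearic acid library 3 (-0.97 and -0.90). msp-77 was also not a DEG with the replicate number as a block (-1.0), and msp-79 missed the threshold without sucrose-stearic acid library 1 (-0.95) or control library 2 (-1.01) as well. Neuron markers summed to 1600, 1710 and 1220 CPM in the sucrose-stearic acid libraries, against 1670, 1590 and 978 CPM in the control libraries, and body wall muscle markers to 9690, 10700 and 8940 CPM, against 14700, 11200 and 9500 CPM in the control libraries. No gene of these 2 lists was a DEG in edgeR's test or by DESeq2, limma called 1 neuron marker, and 1 neuron and 4 muscle markers had an unadjusted p of 0.05 or less. Intestine markers summed to 4980, 5430 and 5160 CPM in the sucrose-stearic acid group, against 7630, 7460 and 5780 CPM in the control group. Of the 8 intestine markers, 4 were higher and 4 lower, with a median of -0.03, and the protease gene asp-1 made up most of the sum, with 3265, 3828 and 3679 CPM, against 5699, 5659 and 4488 CPM in the control group. The part of tissue composition in the changes of intestinal gene families was not tested.

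The combined diet was then compared directly with each single treatment, in fits that did not use the control libraries. These comparisons share the sucrose-stearic acid libraries with the comparison above. Against the sucrose group, 27 of 12582 genes (0.215%) were DEGs, with 13 upregulated and 14 downregulated, and against the stearic acid group, 1265 of 12714 (9.95%), with 477 (3.75%) upregulated and 788 (6.20%) downregulated. Of the 672 genes downregulated against control, 129 did not pass the low-count filter in the comparison with sucrose and were not tested there. They include clec-2, gtnt-7 and cyp-13A4. The median log2FC of the combined diet over sucrose was 0.02 for glycolysis and gluconeogenesis, 0.08 for polyunsaturated fatty acid synthesis and 0.01 for the osmotic list, and over stearic acid it was 0.41, 0.20 and 0.70. CUB-like domain genes had a median of -0.86 over sucrose and -1.86 over stearic acid. Of 43 CUB-like domain genes tested over sucrose, 7 were downregulated, against 0.111% of all genes, and none was upregulated. For collagens the medians were 0.11 over sucrose and 0.67 over stearic acid, and 55 collagen genes were upregulated and 21 downregulated over stearic acid.

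Single genes showed several patterns across the 4 groups, with CPM scaled here over all 15 libraries. hmit-1.1 had 446, 422 and 347 CPM in the sucrose-stearic acid group, 370, 394 and 468 CPM in the sucrose group, 11.3, 11.9 and 11.7 CPM in the stearic acid group and 21.3, 23.4 and 20.8 CPM in the control group. The log2FC of the combined diet was -0.01 ± 0.108 over sucrose and 5.13 ± 0.115 over stearic acid. acs-2 had 2037, 2136 and 2198 CPM in the sucrose-stearic acid group, 1342, 1671 and 2065 CPM in the sucrose group, 1589, 1637 and 1703 CPM in the stearic acid group and 90.4, 64.9 and 129 CPM in the control group. The sucrose and sucrose-stearic acid libraries of acs-2 overlapped, and the log2FC of the combined diet was 0.33 ± 0.128 over sucrose and 0.38 ± 0.0734 over stearic acid, neither of which was a DEG. The stearic acid desaturase gene fat-6 had 247, 272 and 257 CPM in the sucrose-stearic acid group, 371, 310 and 286 CPM in the sucrose group, 596, 619 and 725 CPM in the stearic acid group and 532, 451 and 545 CPM in the control group. It was downregulated in the combined diet over stearic acid (-1.31 ± 0.0929, edgeR adjusted p = 5.63e-07) and not a DEG over sucrose (-0.31).

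cth-1 was among the few genes that differed between the combined diet and sucrose alone. It had 581, 715 and 827 CPM in the sucrose-stearic acid group, 108, 146 and 114 CPM in the sucrose group, 25.6, 23 and 20.4 CPM in the stearic acid group and 11, 9.60 and 10.8 CPM in the control group. The groups did not overlap, and the log2FC of the combined diet was 2.53 ± 0.156 over sucrose (edgeR adjusted p = 0.000658) and 4.95 ± 0.151 over stearic acid. Its neighbours str-7 (2.90) and F22B8.7 (1.16) were likewise upregulated over sucrose, so that the whole run on chromosome V was, and all 3 genes were called over sucrose when any 1 library was left out. Among the 14 genes that were downregulated over sucrose were the CUB-like domain genes cld-1 (-2.28), dod-21 (-2.09), C32H11.3 (-2.01), dod-22 (-1.89), cld-9 (-1.52), C17H12.8 (-1.1) and F53C11.1 (-1.03). Of these 7, dod-22 (-1.70) was the 1 still called without sucrose-stearic acid library 2, where 3 upregulated genes and 1 downregulated gene were found in all, and 2 to 4 of the 7 were called without any other library except sucrose library 3, without which 7 were. dod-22 had 6.73, 4.58 and 7.45 CPM in the sucrose-stearic acid group, 24.2, 19.9 and 25.9 CPM in the sucrose group, 41.6, 37.1 and 41.2 CPM in the stearic acid group and 33.5, 32.9 and 35.1 CPM in the control group, so that the sucrose-stearic acid libraries were the lowest, without overlap with any other group. The number of DEGs over sucrose was 4 without sucrose-stearic acid library 2 and 81 without sucrose library 3, while sucrose library 3 was the highest of its group for fmo-2 (924, 1296 and 1853 CPM) and the lowest for dod-24 (255, 187 and 70.4 CPM).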

How the data were processed

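mRNA of whole L4 worms was sequenced in 5 groups of 3 libraries, of which the sucrose-stearic acid, sucrose, stearic acid and control groups were used here. The authors mapped reads with TopHat and deposited raw counts per gene and FPKM values from Cufflinks in 1 table, and the program that made the counts, its strand setting and its treatment of reads shared by paralogs or overlapping genes are not given in the sources used here. Such genes are therefore uncertain. The table also holds the authors' own comparisons (FDR and log2 fold changes), which were not used, and their domain and pathway annotation, from which the Pfam groups were taken. Libraries were grouped by their labels. Gene names were taken from the study's supplementary tables and from the RefSeq annotation (WBcel235), and 15178 of 16196 genes were named.

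Counts were tested with edgeR 4.0.16 (R 4.3.3) after filterByExpr and TMM scaling, in a quasi-likelihood fit of the 6 libraries of each comparison, with Benjamini-Hochberg adjustment over all genes tested. SE is the log2FC divided by the root of F. The fit was also run on simulated counts drawn independently for each library. That run does not cover a library that stands apart as control library 3 did. Depth was about equal in all libraries, and a count of 3 in a library was 0.151 CPM, the floor used for a bound on a fold change against a group at 0. Named genes were members of the lists with a stated role, up to 4 DEGs per direction and family whose normalized counts averaged 50 or more in 1 group, up to 15 DEGs per direction over all genes that also had no overlap between libraries, and up to 4 DEGs in each of the 10 Pfam and KEGG groups with the highest share of DEGs. Other genes in the text were chosen after their values were seen, as the runs, the genes under the floor and the DEGs over sucrose. The gene lists, families and members were chosen with earlier results of these data known. Listed genes without a matching name among the genes were left out, so the lists do not cover their pathways fully. This left 18 of 30 listed genes for glycolysis and gluconeogenesis, 18 of 32 for oxidative phosphorylation and 15 of 22 for germline proliferation and replication. Labels share replicate numbers between groups, without saying what a number marks. Deviations from the group means of same-numbered sucrose-stearic acid and control libraries were correlated over genes (r = 0.153, 0.239 and 0.41), so a fit with the replicate number as a block was also made. Among unlike-numbered pairs, r was 0.255 for sucrose-stearic acid library 2 with control library 1 and 0.133 for library 1 with control library 2. The other unlike-numbered pairs were negative. These values do not show that the numbers pair the libraries of these groups. Against sucrose (r = -0.185, 0.0348 and -0.32) and stearic acid (r = -0.0377, 0.0232 and -0.117) the numbers did not pair the libraries. Alternatives were RLE size factors, DESeq2 1.42.0, no filter on low counts, an adjusted p of 0.01, no fold minimum, all 15 libraries in 1 fit, limma 3.58.1 on log2(FPKM + 1) or log2(FPKM + 0.1) of deposited FPKM, and leaving out each library.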

Additional observations from a re-analysis of the deposited data

How the results depend on the processing

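The number of DEGs against control was 1223, and it was 2538 with no fold minimum, of which 55.2% were upregulated, against 45.1% with the minimum. Leaving out single libraries gave 1066 to 1284, the replicate block 1309, and the other alternatives 1001 to 1288. With the family and list genes, 435 were DEGs and 752 with no fold minimum. Of 417 DEGs among 720 named genes, 350 were called under all 16 alternatives. acdh-4 was the gene that reversed, with a log2FC of 1.75 in all 3 limma fits of FPKM and -0.08 in the counts, where it was not a DEG, and the cause was not tested. The few DEGs against sucrose (27) depended most on the setting. There were 10 at an adjusted p of 0.01, 56 with no fold minimum, 71 by DESeq2, 17 by limma with a pseudocount of 0.1 and 7 with the replicate block, and 4 to 81 when single libraries were left out. Against stearic acid, 1265 became 4334 with no fold minimum, and 1236 with the replicate block, and lay between 1043 and 1334 otherwise. The block changed the calls of msp-77, hsp-70, hsp-16.2 and asg-2 as given above. With 3 libraries a group and levels under 1 CPM, the lowest genes are known only to within counting error.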
